A study of Mus musculus with 3 samples.

Results

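Neuregulins and the related ligands of the epidermal growth factor (EGF) family bind receptor tyrosine kinases of the ErbB family. In the heart, neuregulin 1 made by endothelial cells acts on ErbB4 of cardiomyocytes, and ErbB4 pairs with ErbB2, a receptor with no known ligand of its own. Heparin-binding EGF-like growth factor, the product of Hbegf, binds ErbB4 and the EGF receptor, the product of Egfr. Yap1 is a transcriptional co-activator of the Hippo pathway that reaches DNA through partners such as the TEAD factors.

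The regions described here are those of the deposited Yap1 table whose gene list held Erbb4, Erbb2, Egfr, Nrg1 or Hbegf as an exact symbol. There were 12 such regions among 22020. Erbb4 had 6, Hbegf 4 and Erbb2 2, and Egfr and Nrg1 were listed for none.

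Both groups were hearts of male C57BL/6J mice labelled wild-type. One group had a sham operation, and the other transverse aortic constriction (TAC), a narrowing of the aorta that makes the left ventricle pump against a higher pressure. Hearts were taken 7 days after surgery, with 3 mice for each operation per the series' design. Each operation is represented by 1 library of chromatin immunoprecipitated with an antibody against Yap1 (ChIP-seq). No value below therefore has a replicate or a test, and every difference is one between 2 libraries. The sources used here do not say whether mice were pooled for a library, and the input library, a pool of both operations, was not used.

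The signal values are the authors', an average over each region and the maximum within it, in units whose scaling between libraries is not stated. Ratios are given as log2((TAC + 1)/(sham + 1)) of average signal, and folds are on this scale, which understates differences of weak regions. The ratio had a median of -0.54 over all 22020 regions, whose median signals were 10.6 (sham) and 7.46 (TAC), and member ratios are set against it. Read depth is unknown. A region entered the table by being called as a peak in at least 1 library, and regions called in sham alone had a median ratio of -0.62, those called in both libraries -0.46 and those called in TAC alone 0.24. Whole hearts hold several cell types, and fewer cells of a type and less Yap1 binding per cell cannot be told apart. Of all 21900 protein-coding RefSeq genes, 49.9% were listed for a region by their current symbol. Beside that share, the listed marker genes were 8 of 8 for cardiomyocytes, 6 of 6 for endothelial cells, 3 of 5 for fibroblasts, 1 of 5 for leukocytes, 1 of 4 for epithelium, 2 of 3 for hepatocytes and 1 of 3 for neurons, in lists too short to rank.

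The starts of the member genes differed in where Yap1 signal lay, and RefSeq sequence of these windows is shown for that reason. Each window runs from 250 bases before to 50 bases after the start, 5′ to 3′ on the strand of the gene, on GRCm38.p6, the assembly that mm10 names. A window was available for Erbb4, Erbb2 and Egfr among the members, and that of Mien1 is added because its start lies in a region listed for Erbb2. The letters searched were GGAATG, the core of the TEAD motif, and TGANTCA, the AP-1 motif, on both strands, and capitals mark the matches. They do not overlap each other where found.
Erbb4, chr1:69108010-69108309, minus strand: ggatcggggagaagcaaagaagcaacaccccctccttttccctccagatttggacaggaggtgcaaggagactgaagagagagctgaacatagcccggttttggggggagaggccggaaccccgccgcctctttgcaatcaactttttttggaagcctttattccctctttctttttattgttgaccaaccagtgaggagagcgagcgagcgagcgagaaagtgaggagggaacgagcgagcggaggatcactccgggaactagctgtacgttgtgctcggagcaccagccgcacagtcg
Erbb2, chr11:98412234-98412533, plus strand: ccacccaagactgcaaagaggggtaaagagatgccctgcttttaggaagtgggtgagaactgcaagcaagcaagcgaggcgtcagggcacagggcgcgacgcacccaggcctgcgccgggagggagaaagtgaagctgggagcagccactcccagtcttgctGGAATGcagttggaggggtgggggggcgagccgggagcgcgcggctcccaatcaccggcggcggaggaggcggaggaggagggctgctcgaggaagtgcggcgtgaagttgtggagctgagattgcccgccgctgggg
Mien1, chr11:98438939-98439238, minus strand: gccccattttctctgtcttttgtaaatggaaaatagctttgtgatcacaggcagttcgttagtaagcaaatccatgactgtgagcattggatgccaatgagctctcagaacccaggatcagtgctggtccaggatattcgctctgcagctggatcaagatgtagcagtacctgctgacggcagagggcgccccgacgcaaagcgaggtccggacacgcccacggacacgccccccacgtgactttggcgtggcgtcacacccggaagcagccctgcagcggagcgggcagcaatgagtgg
Egfr, chr11:16751953-16752252, plus strand: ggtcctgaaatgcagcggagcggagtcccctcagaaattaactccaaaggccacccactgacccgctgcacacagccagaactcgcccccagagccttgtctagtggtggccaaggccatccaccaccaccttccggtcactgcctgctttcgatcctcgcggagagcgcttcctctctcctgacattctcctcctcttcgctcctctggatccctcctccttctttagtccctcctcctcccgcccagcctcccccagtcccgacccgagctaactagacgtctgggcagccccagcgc

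The windows of Erbb2 and Mien1 lay inside a Yap1 region. That of Erbb4 lay 63 bp outside one, since the region there begins just inside the gene and extends into it, and that of Egfr lay 159583 bp from the nearest region. Only the Erbb2 window of these 4 held a motif searched, the TEAD core at -88 from the start. The TEAD core was in 14.7% of all 32851 promoter windows, in 12.7% of the 9648 that lay inside a region and in 15.5% of the others. The AP-1 letters were in 7.81% of all windows, in 5.06% of those inside a region and in 8.95% of the others. All 4 windows were rich in CpG dinucleotides, with 17 in Erbb4, 21 in Erbb2, 17 in Mien1 and 15 in Egfr, where the median was 7 over all windows and 21 over those inside a region. The Egfr window had a CpG count above the median of all windows and no region.

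Erbb4, the gene of the neuregulin receptor, held the member region with the strongest sham signal, the one at its start. By the median over regions, its sham signal was the lowest of the members with a region, at 9.75 against 10.2 for Erbb2 and 11.3 for Hbegf. By the same measure Erbb4 had the lowest ratio of TAC to sham. All 6 of its regions were at least 1.5-fold lower in TAC, where 43.0% of all regions were. Its ratios ran from -1.34 to -0.60 with a median of -1.03, below the median of all regions in each case. The region at the start, on chromosome 1 from 69104340 to 69107947, averaged 19.5 in sham against 7.98 in TAC, with maxima of 52 and 23. It covers a CpG island and has its midpoint 1916 bp inside the gene. Its ratio was -1.19, a signal 2.28-fold higher in sham. Within each library, which needs no scaling between them, this region stood at percentile 97.2 of all regions in sham and 58.3 in TAC. Among the 7351 regions with a promoter and a CpG island its ratio was at percentile 0.204, where the median ratio was -0.48. It was called in both libraries.

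The other 5 Erbb4 regions lay deep in this gene of 1076693 bp and had no promoter or CpG island. Which exons or introns they cover was not analysed here. The innermost pair lay 604318 and 606261 bp from the start and only 388 bp apart, on chromosome 1 from 68502815 to 68504668 and from 68501169 to 68502427. The nearer of the pair had 9.53 in sham and 4.28 in TAC, with maxima of 20 and 9. The farther one had 9.23 and 3.05, with maxima of 22 and 7, and its ratio of -1.34 was the lowest of the 12 regions. Neither was called in TAC, and in that library the farther one stood at percentile 0.768 of all regions.

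The region 327385 bp inside, from 68779729 to 68781619, had 11.2 in sham and 5.42 in TAC (ratio -0.93) and was called in sham alone. The region 134273 bp inside, from 68972953 to 68974619, had 9.96 and 6.23. It was called in both libraries, and its ratio of -0.60 was the nearest of the 6 to the median of all regions. The region 22022 bp inside, from 69085471 to 69086603, had 7.77 in sham and 3.21 in TAC (ratio -1.06), and its sham signal was the weakest of the gene, at percentile 6.64. By sham signal these deep regions ranged from percentile 6.64 to 57.1 of all regions, whereas in TAC they lay between 0.768 and 29.8.

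Regions of this kind, listed for 1 gene and inside it by more than 20 kb, numbered 5027 and had a median ratio of -0.60, and 52.0% of them were at least 1.5-fold lower in TAC. The 5 deep Erbb4 regions lay at percentiles 0.855, 5.13, 7.42, 11.8 and 49.6 of their ratios. Of these 5, 1 was called in TAC, where 36.4% of regions of this kind were. The others were called in sham alone, and that call itself selects for a high sham signal. Over all regions called in sham alone the median ratio was -0.62, and percentiles among those regions are not given here. A size of 2-fold lower was passed by 3 of the 6 Erbb4 regions and by none of the other 6 member regions, where 5.12% of all regions passed it. These 3 were 2 deep regions, where 7.32% of regions of this kind passed, and the region at the start, where 1.28% of those with a promoter and a CpG island did and 32.9% were at least 1.5-fold lower. The maximum signal gave ratios of -1.52 to -0.81 over the 6 regions with a median of -1.01, and all 6 were again at least 1.5-fold lower, where 47.6% of all regions were. After subtracting the median of all regions, 2 of the 6 were at least 1.5-fold lower, the region at the start and the innermost one, where 2.31% of all regions were. Regions of 1 gene share its chromatin and are not replicates.

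**Figure D1:**
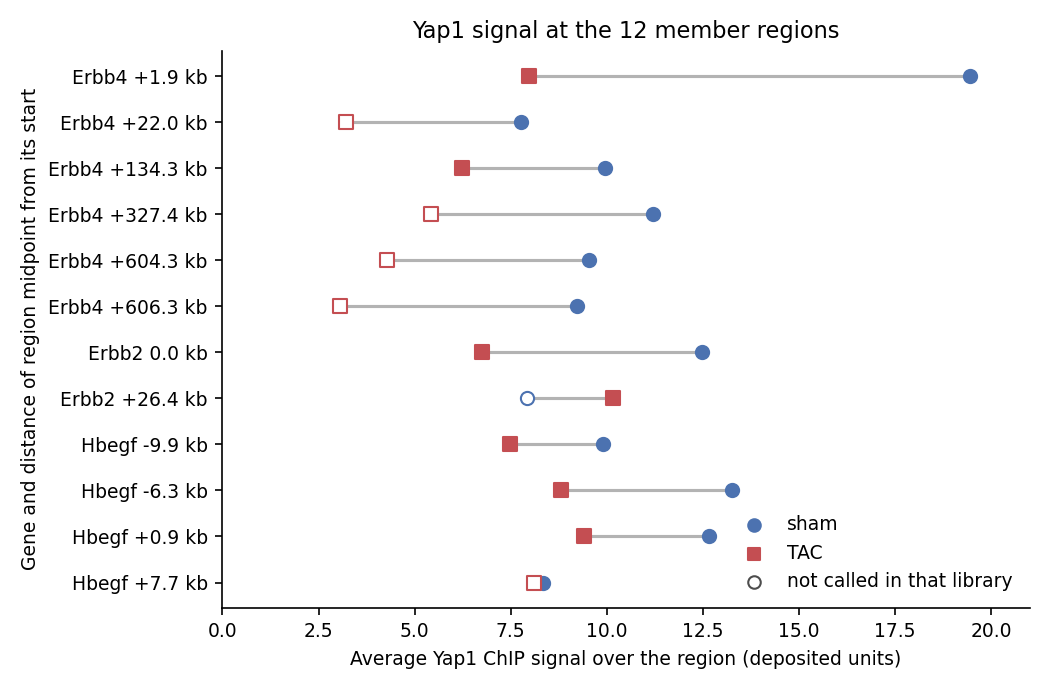
Average Yap1 signal (horizontal axis, deposited units) at the 12 regions in sham (blue circles) and TAC (red squares), 1 library each, with open symbols where the authors did not call the region in that library. Rows give the gene and the distance of the region midpoint from its start. The 6 Erbb4 regions run from 7.77 to 19.5 in sham and from 3.05 to 7.98 in TAC, and the region 26.4 kb from the Erbb2 start is the only one with the higher signal in TAC on the deposited scale.

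Erbb2, the partner receptor, had 2 regions with ratios of opposite sign. The region over its start, on chromosome 11 from 98411427 to 98413523, averaged 12.5 in sham against 6.75 in TAC, with maxima of 46 and 29. Its midpoint lay 9 bp before the start, it covers a CpG island and the sequence window shown above, and it was called in both libraries. Its ratio was -0.80, a signal 1.74-fold higher in sham, and it stood at percentile 69.9 of all regions in sham and 38.4 in TAC. The signal was peaked: the maximum was 3.69 times the average in sham and 4.29 times in TAC, where the medians of all regions were 2.30 and 2.32.

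The other Erbb2 region, from 98438226 to 98439600, was the only one of the 12 with more signal in TAC, by average and by maximum. It had 7.93 in sham and 10.2 in TAC, maxima of 19 and 23, a ratio of 0.32 and a call in TAC alone. The authors listed it for 3 genes: 26429 bp from the Erbb2 start and downstream of that gene, 75 bp inside Mien1, and 7921 bp upstream of Grb7, which encodes an adaptor that binds ErbB receptors. It thus lies over the start of Mien1, and the table cannot tell to which of the 3 genes the signal belongs. A ratio above 0 was found at 5.38% of all regions, and this region's ratio stood at percentile 98.5. Of the 749 regions called in TAC alone, 3.4% of all regions, 39.4% had a ratio at least as high, and the call itself selects for a high TAC signal. After subtracting the median of all regions this was the 1 member region at least 1.5-fold higher in TAC, where 4.42% of all regions were. On the deposited scale no member region was, where 0.486% of all regions were.

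The regions around Erbb2 also differed among themselves. The 3 regions 15112 to 31081 bp before the gene, listed for Stard3, Tcap, Pnmt and Pgap3 in different combinations, had 20.5, 15.01 and 15.8 in sham against 9.89, 7.48 and 7.80 in TAC. Tcap encodes a titin-binding protein of the sarcomere. Their ratios of -0.98, -0.92 and -0.93 were below that of the Erbb2 start. The Pgap3 start, between them and Erbb2, had 11.9 and 7.66 (ratio -0.58), near the median of all regions. Beyond Mien1, the next region lay 71109 bp from the end of Erbb2, inside Ikzf3, and had 11.4 and 8.43 (ratio -0.39). Of the 9 regions within 100 kb of Erbb2, the one at the Mien1 start alone had more average signal in TAC than in sham on the deposited scale. By maximum signal the Ikzf3 region, with 26 in sham and 30 in TAC, and the one farthest before Erbb2, listed for Ppp1r1b, with 14 and 15, were higher in TAC too.

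**Figure D2:**
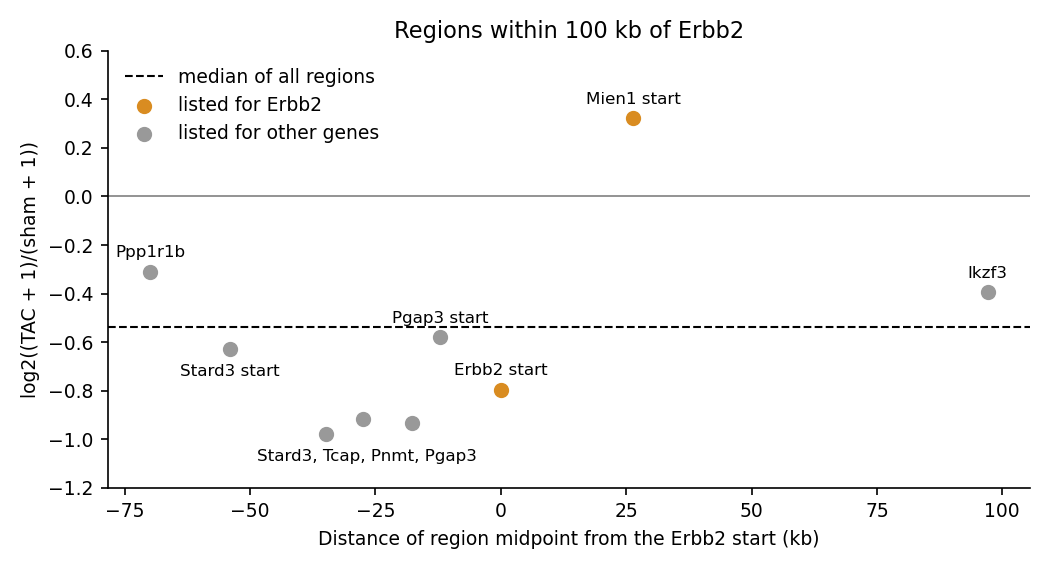
Ratio of TAC to sham signal (vertical axis, log2 of average signal plus 1) at the regions within 100 kb of Erbb2, by the distance of the region midpoint from the Erbb2 start (kb, positive towards and beyond the gene's end). Orange points are listed for Erbb2, grey points for other genes, and the dashed line is the median of all regions at -0.54. The Erbb2 start is at -0.80 and the Mien1 start at 0.32, with the regions listed for Tcap between -0.98 and -0.92. The Stard3 start is at -0.63 and the Pgap3 start at -0.58.

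Hbegf, the ligand gene, had 4 regions with ratios from -0.54 to -0.03, and 3 of them lay above the median of all regions. None was at least 1.5-fold lower in TAC, where 43.0% of all regions were. With the median of all regions subtracted, the median of the 4 turned from -0.38 to 0.16. The region over its start, on chromosome 18 from 36512031 to 36517762, was 5731 bp long, at percentile 93.1 of region length. It had an average signal of 12.7 in sham and 9.41 in TAC (ratio -0.39). Its maximum was 48 in sham and 47 in TAC, so that the average differed between the libraries while the highest point was within 1 unit. It covers a CpG island and its midpoint lies 909 bp inside the gene.

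A region 6312 bp upstream of Hbegf, from 36521215 to 36523020, was almost as strong by the mean of both libraries, with 13.3 in sham and 8.81 in TAC (ratio -0.54). Another, 9893 bp upstream, from 36524911 to 36526486, had 9.90 and 7.47 (ratio -0.36). Both were also listed for Slc4a9, an anion exchanger gene on the far side, whose start lies 2454 bp from the midpoint of the second. The region inside the gene, 7746 bp from the start and from 36507380 to 36508738, had 8.33 in sham and 8.12 in TAC (ratio -0.03), so its average signal was nearly equal in the libraries, while its maxima were 16 and 12. It was called in sham alone, and the other 3 in both libraries. By within-library rank the region at the start stood at percentile 71.7 in sham and 77.5 in TAC, and the inner region at 14.7 in sham and 60.3 in TAC.

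**Figure D3:**
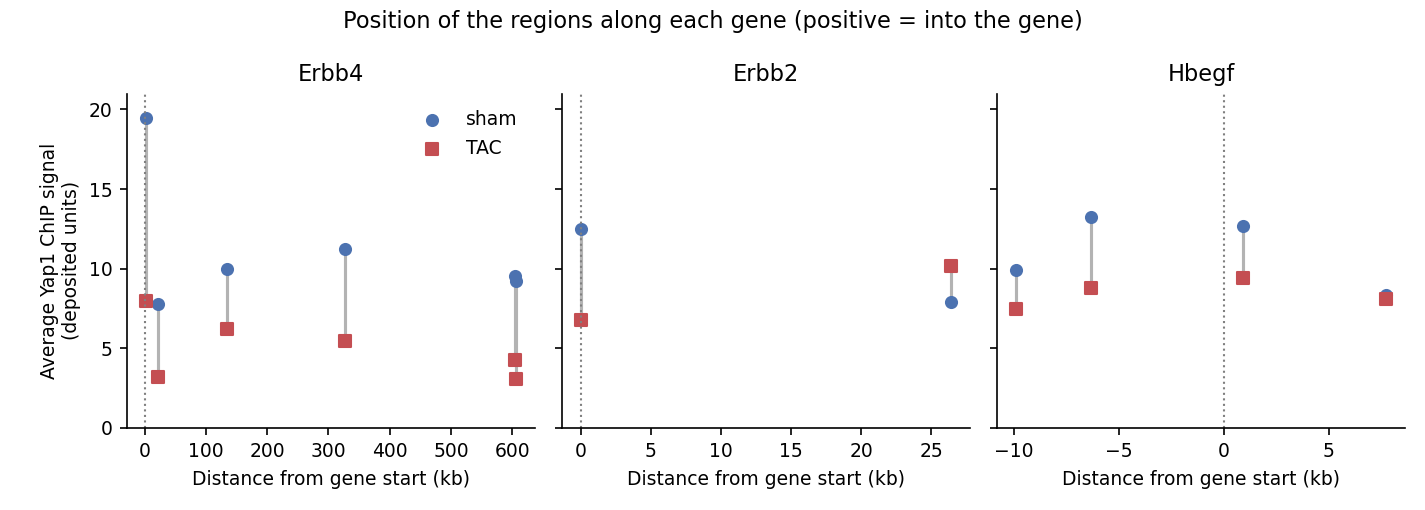
Average Yap1 signal (vertical axis, deposited units) by the distance of each region midpoint from the start of Erbb4, Erbb2 and Hbegf (kb, positive into the gene), with sham as blue circles and TAC as red squares joined by a line. The horizontal scales differ between panels. Erbb4 regions reach 606261 bp into the gene, whereas the 4 Hbegf regions lie within 10 kb of the start.

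Neither Egfr nor Nrg1 was listed for a region. RefSeq places Egfr on chromosome 11 from 16752203 to 16913907, a span of 161705 bp that held no region of the table. The nearest one lay 36284 bp beyond it, over the paired starts of 2810442I21Rik and Fbxo48, with 9.04 in sham and 5.34 in TAC (ratio -0.66). Nrg1 spans 1084158 bp on chromosome 8 from 31807452 to 32891609. One region, from 32043820 to 32045207, lay inside this span with no gene listed for it. It had 8.44 in sham and 5.72 in TAC (ratio -0.49), a maximum of 16 in both libraries and a call in sham alone. Outside the span the nearest regions were 492855 bp and 637798 bp away, at Wrn and Purg and at Tti2 and Mak16.

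Genes about as long as Erbb4 held from 0 to 6 regions within the family. Nrg3, a neuregulin gene of 1108134 bp, had none in its span, and Nrg1 the 1 described. Of the 227 protein-coding genes of at least 500 kb in the RefSeq table, 97 (42.7%) held no region, the median was 1, and 35 (15.4%) held at least as many as the 6 of Erbb4.

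**Figure D4:**
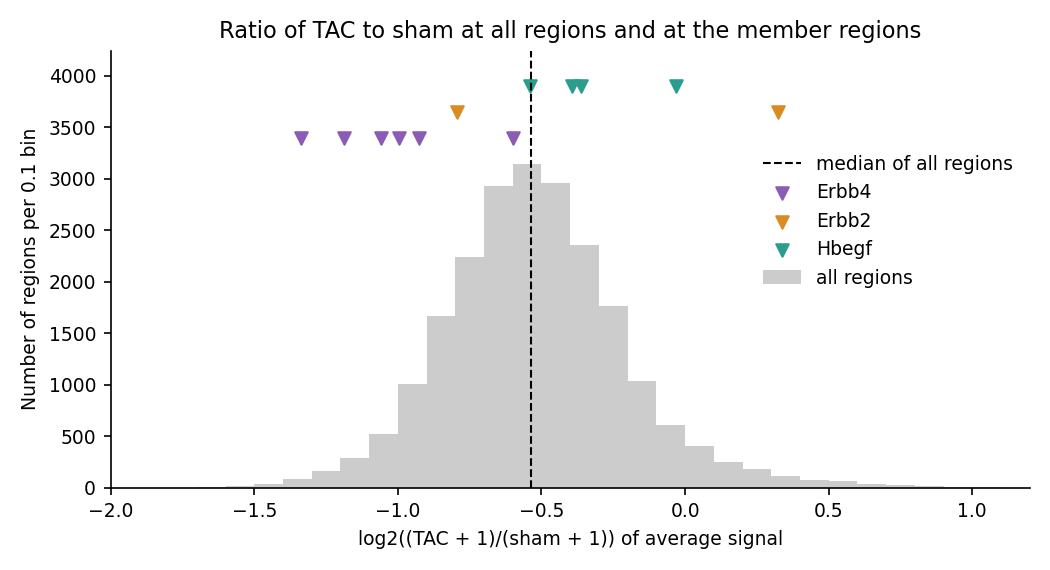
Number of regions (vertical axis) by the ratio of TAC to sham signal (horizontal axis, log2 of average signal plus 1) for all 22020 regions in grey, with the 12 member regions as triangles above and the median of all regions, -0.54, as a dashed line. The 6 Erbb4 regions lie between -1.34 and -0.60, the 4 Hbegf regions between -0.54 and -0.03, and the Erbb2 regions at -0.80 and 0.32.

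Over the 12 regions the median ratio was -0.70, and 11 had a ratio below 0, where 5.38% of all regions had one above 0. At least 1.5-fold lower in TAC were 7 of the 12, where 43.0% of all regions were. The 7 were the 6 Erbb4 regions and the Erbb2 start, so the count is set mainly by 1 gene. With the median of all regions subtracted, 2 were at least 1.5-fold lower and 1 higher, where 2.31% and 4.42% of all regions were. The sham library had a call at 11 of the 12 and the TAC library at 7, where the shares of all regions were 96.6% and 48.7%. By strongest region, the ratios were -1.19 for Erbb4, -0.80 for Erbb2 and -0.39 for Hbegf, beside a median of -0.50 over the 13464 gene symbols with a region. The Hbegf choice was close to a tie, since the region 6312 bp upstream, with a ratio of -0.54, was almost as strong.

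The genes most like each member were named by the distance between strongest regions over the 2 libraries, on the log2(signal + 1) scale. For Erbb4 they were Rps6ka5, with 19.7 in sham and 8.15 in TAC at a distance of 0.03, and Creb3l3 and Map2k2, which share a region with 19.2 and 8.15. For Erbb2 they were 0610031O16Rik (12.5 and 6.70), Angpt1 (12.5 and 6.68) and Sec14l5 (12.5 and 6.84). For Hbegf they were Acot7 (12.7 and 9.45), Maml1 (12.7 and 9.45), and Sbds and Tyw1, which share a region with 12.7 and 9.42. With only 2 values per gene, such likeness is common and describes signal level alone.

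Most other receptors and ligands of the family had no listed region, where 49.9% of all protein-coding RefSeq genes were listed for one. Of 10 such genes, Erbb3 and Egf were listed, and Nrg2, Nrg3, Nrg4, Btc, Ereg, Areg, Tgfa and Epgn, all ligand genes, were not. Erbb3, the gene of a receptor with little kinase activity of its own, had 2 regions on chromosome 10. The inner one, 5812 bp from the start and from 128583045 to 128584334, had 9.03 in sham and 10.7 in TAC (ratio 0.22) and was called in TAC alone. The one over the start, from 128589554 to 128591173, had 9.0 and 7.53 (ratio -0.23) and was called in sham alone. The Egf region, 30279 bp inside that gene and called in sham alone, had 9.74 and 4.89 (ratio -0.87). All of the family regions outside the members were below the median sham signal of all regions. In TAC both Erbb3 regions were above the median of all regions, 7.46, and the Egf region was below it.

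Of the genes that release the ligands or carry or limit the signal, 51 of 56 were listed for a region. Of all protein-coding RefSeq genes, 49.9% were. Listing is not the same as position: of the 13 genes of all 4 lists that were not listed, 2 held a region inside their RefSeq span. Of all genes with a region, 36.3% had a strongest region at least 1.5-fold lower in TAC and 0.208% one at least 1.5-fold higher. Ligand shedding genes had a listed region in 9 of 10 cases and a median ratio of -0.46, and 2 were at least 1.5-fold lower. Timp3, the gene of a metalloprotease inhibitor that blocks shedding, was at -0.71, with a signal of 20.7 in sham against 12.2 in TAC, and its region was listed as inside Syn3 as well. The maximum of that region was 60 in sham and 53 in TAC. Adam9 was at -0.63, while Adam17, the gene of a main sheddase of EGF family ligands, had 13.2 and 10.7 (-0.27) and Adam15 was at -0.15.

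Adaptor and kinase genes had a listed region in 29 of 33 cases, a median ratio of -0.45, and 12 at least 1.5-fold lower in TAC. Map2k2, a MAP kinase kinase gene near the low end, had 19.2 in sham against 8.15 in TAC (-1.14) and was not called in TAC. The highest were Grb7, by the region it shares with Erbb2 and Mien1 (0.32), and Sos2, a gene of an exchange factor for Ras, with 10.1 and 11.2 (0.13) and a call in TAC alone. Negative regulators had a listed region in 13 of 13 cases, a median of -0.57, and 6 at least 1.5-fold lower. The Sprouty genes Spry2 (-0.72) and Spry1 (-0.71) had the lowest ratios of that list, and Spry4 (-0.33) and Usp8 (-0.16), the gene of a deubiquitinase that acts on receptor turnover, the highest. This order is by average signal. The maximum was 29 in sham and 26 in TAC for Spry2, and 46 and 29 for Spry1. In total 21 of the 53 genes with a region in the 4 lists were at least 1.5-fold lower, and 27 lay below the median of all genes. With the median of all regions subtracted, 2 of the 53 were at least 1.5-fold lower, where 2.31% of all regions were. The share over all genes on that scale is not given here. Strongest regions were shared with a neighbouring gene for 28 of the 53.

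**Figure D5:**
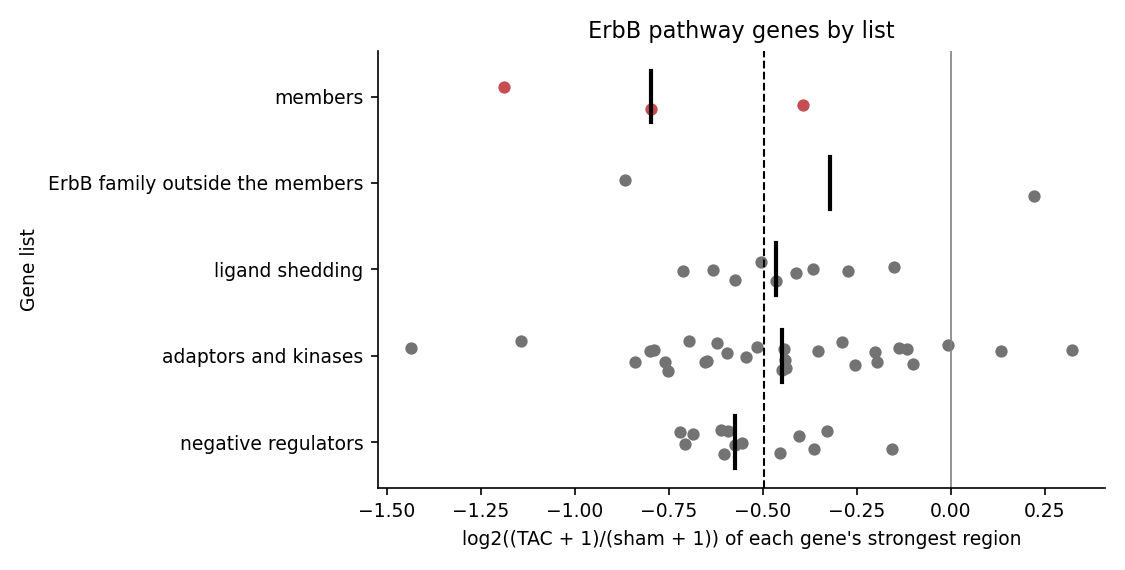
Ratio of TAC to sham signal at the strongest region of each gene (horizontal axis, log2 of average signal plus 1) for the members and the 4 pathway lists, 1 point per gene with a listed region and a black bar at the median of each list. The dashed line is the median of all genes at -0.50. The medians of the 4 pathway lists run from -0.57 for negative regulators to -0.32 for the 2 family genes outside the members. The bar of the members lies at the Erbb2 value, -0.80. Vertical scatter only separates the points.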

How the data were processed

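Per the labels, hearts were frozen and sent to a company that made the ChIP-seq libraries, and the antibody was against YAP1. Per the submitters' processing notes, BWA and MACS 1.4.2 were used on mm10, and no further settings are given in the sources used here. The deposited table gives, per the file headers, the average and maximum signal of each library over 22020 merged regions, with call marks, listed genes, distances to the start and counts of promoters and CpG islands. Columns were matched to libraries by the operation in their names. Start and end are printed as in that table, where length equals end minus start.

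Ratios were log2 values computed here from the deposited signal with a pseudocount of 1 (Python 3.11.15, pandas 2.3.3), and 1.5-fold was the fixed size. A gene's strongest region has the highest mean of both libraries. Of 11445 regions listed for 1 gene, 83.1% had an authors' distance to the start within 1000 bp of a RefSeq GRCm38.p6 gene end. Members and lists were chosen with earlier results of these data known. All members and family genes are named, and in each other list the 2 highest and 2 lowest. One item taken by this rule is not reported here.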

Additional observations from a re-analysis of the deposited data

How the results depend on the processing

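With 1 library per operation no library could be left out, and no depth limit could be set because depth is unknown. No paired analysis was possible because each operation has 1 library and no test was made. Of 86 values under alternative settings, 58 kept their direction and side of the 1.5-fold size, or for counts stayed within 1.5 times. Of the other 28, 16 came from a different scaling between the libraries, which by construction shifts every ratio. Some of the 58 repeat the main value and do not show stability. The filters and the choice of the region nearest the start kept the same strongest region of Erbb4, Erbb2 and Hbegf. Keeping regions that list the member first kept all 12, so the member values were the same again. With the median of all regions subtracted, 2.31% of all regions were at least 1.5-fold lower. On that scale the median over the 12 regions was -0.16, and 2 of 12 and 2 of 53 pathway genes were at least 1.5-fold lower. The Erbb2 start was at -0.26. With quantile normalization these were -0.19, 2, 2 and -0.33. The median over Erbb4 regions was then -0.49 and -0.39, under 1.5-fold, while the region at its start stayed past it (-0.65 and -0.70). The sign changed for the Hbegf start (0.14 and 0.073), the Hbegf median (0.16 and 0.087) and the Erbb2 median (0.30 and 0.28). A pseudocount of 5 gave -0.49 for all 12 regions, -0.57 for the Erbb2 start and 6 pathway genes. With regions called in both libraries the values were -0.57 over 6 regions, 3 lower, -0.80 for the Erbb2 median and 11 pathway genes of 39. With regions at or above the median signal they were -0.54 over 5 regions and 2 lower. Regions listed for 1 gene gave -0.80 for the Erbb2 median. With that filter, and with regions called in both libraries, only the Erbb2 start was left, so -0.80 is the ratio of that region again. At 2-fold, 3 of 12 regions and 2 of 53 genes were lower, where 5.12% of all regions were. Other shares of all regions or genes under these settings are not given here. The pseudocount of 5 and the 2-fold size kept all 12 regions, while the filters by call, signal or number of listed genes kept fewer. What moved each value was not tested.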
